A study of Macaca mulatta with 27 samples.

Results

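The proteasome genes described here are the symbols of the count tables that begin with PSM, a letter from A to G, and a number, without the immunoproteasome subunits PSMB8 and PSMB9. The rule took 47 of the 17967 symbols. Of these, 46 are proteasome genes, with 17 in the core particle, 17 in the regulatory particle, 7 assembly chaperones, and 5 activators or inhibitors. The remaining symbol, PSMC3IP, encodes a recombination protein that carries the prefix through its name only, and it was kept apart. The tables list genes by symbol and name no genome build, so no positions or sequences are given.

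RNA was sequenced from rhesus embryonic stem cells of LyonES-tGFP-(S3), a single clone that carries tauGFP behind the CAG promoter and a lentiviral STAT3-ER T2, a form of STAT3 activated by tamoxifen, so that all groups share both transgenes. There were 6 libraries of primed cells, the conventional state, passaged mechanically in clumps, and 3 of each of 7 protocols meant to bring cells to the naive state, which were dissociated to single cells. The media of NHSM-v, LCDM (EPS), t2iLGöY, E-NHSM, and 4i/L/b were described in earlier work and were used without tamoxifen. TL2i combined tamoxifen, LIF, and inhibitors of MEK and GSK3β, and TL-CDK8i had an inhibitor of CDK8 and CDK19 in place of the MEK and GSK3β inhibitors. Nothing in the labels says that replicates were separate cultures, so p-values measure only the spread between these libraries, which may be technical.

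The proteasome is the chamber in which cells degrade proteins marked with ubiquitin. Its core particle is a barrel of alpha rings, which gate the entrance, and beta rings, which hold the peptidases. The regulatory particle caps the barrel, with a base that holds ATPases, which unfold substrates, and a lid that removes their ubiquitin. Other caps, the PSME activators, open the barrel without the regulatory particle, and dedicated chaperones assemble the complex. Stem cells depend on this machinery to keep their proteins in balance.

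Deposited totals ran from 7111886 to 20760914 counts per library, with a median of 12201171, and no library of a group was a repeat of another, the counts of the 36 pairs giving chi-square values per gene between 3.98 and 29.8, above what sampling alone gives. Levels are given as CPM, a gene's counts scaled to a fixed library size after the trimmed mean of M values (TMM) had been used to put all 27 libraries on a common scale. The labelled cell type was checked against 10 pluripotency genes. Their summed level was 6215 to 7269 CPM in primed cells, 7254 to 7348 in E-NHSM, 1915 to 2621 in TL-CDK8i, 547.8 to 629.2 in TL2i, 446.8 to 473.8 in LCDM (EPS), 198.3 to 206.1 in t2iLGöY, 190.2 to 198.7 in 4i/L/b, and 134.8 to 150.2 in NHSM-v. NANOG had 1 count or none in each library of 4i/L/b, LCDM (EPS), NHSM-v, and t2iLGöY and 1 to 11 counts in TL2i. All 10 pluripotency genes were lower than in primed cells in these groups, except in LCDM (EPS), where 9 were. There SOX2, at 317, 317, and 332 CPM, lay within the primed range of 213 to 341 CPM. In TL2i LIN28A kept 285, 232, and 296 CPM, against 477 to 679 CPM in primed cells. In these 5 groups most markers thus did not bear out the label of embryonic stem cells. A sum of 10 neural genes was 66.03 to 126.7 CPM in primed cells, 100.9 to 119.3 in E-NHSM, 196.9 to 274.5 in TL-CDK8i, 534.4 to 563.6 in TL2i, 650.4 to 737.1 in 4i/L/b, 1145 to 1210 in NHSM-v, 2392 to 2665 in t2iLGöY, and 3586 to 3994 in LCDM (EPS). A sum of 9 fibroblast or mesenchymal genes was 1164 to 2384 in primed cells, 11690 to 15300 in 4i/L/b, 8611 to 11130 in TL-CDK8i, 8020 to 8603 in NHSM-v, 2953 to 5784 in TL2i, 3445 to 4031 in t2iLGöY, 768.9 to 997.8 in LCDM (EPS), and 455 to 492.3 in E-NHSM. The part of these marker shifts in the results below was not tested. In bulk RNA, fewer cells of a type and less RNA per cell cannot be told apart.

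Most proteasome genes were lower than in primed cells in 5 of the 7 protocols, and fewer were lower in TL-CDK8i and E-NHSM. Of the 46 genes, PSMA8, a testis form of an alpha subunit, had no count in any library and PSMB11, a thymus form of a beta subunit, had at most 8, which left 44 tested in each comparison. In NHSM-v, 35 of 44 were lower and 0 higher, where 30.6% of all genes tested were lower and 28% higher. The corresponding counts were 37 lower and 0 higher in 4i/L/b, against 29% and 26.6% of all genes, and 36 lower and 0 higher in TL2i, against 25.2% and 25.6%. In t2iLGöY, 35 were lower and 1 higher, against 27.2% and 27.1%, and in LCDM (EPS) 30 were lower and 1 higher, against 28.9% and 28.2%. TL-CDK8i had 21 lower and 0 higher, against 23.8% and 22.3%. E-NHSM had 11 lower and 2 higher, against 15.1% and 11.1%. These calls come from edgeR's quasi-likelihood test with Benjamini-Hochberg adjustment over all genes tested and a threshold of 0.05. The 7 comparisons share the 6 primed libraries and are not independent of each other.

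The median log2 fold change over the 44 genes was -0.67 in NHSM-v, -0.67 in 4i/L/b, -0.68 in TL2i, -0.67 in t2iLGöY, -0.54 in LCDM (EPS), and -0.32 in TL-CDK8i, where the median over all genes tested lay between -0.02 and 0.07. In E-NHSM the median was 0.00 for the proteasome genes and 0.02 for all genes. Because proteasome genes are well expressed, the same calls were also set beside genes with an average log2 CPM of at least 5, of which 23.1% were lower in E-NHSM and 37.4% to 43% in the other protocols. The 11 of 44 proteasome genes lower in E-NHSM were near that share. For TL-CDK8i the share was 37.4%, so its 21 of 44 lower genes were less far above it than above the 23.8% of all genes. The 0 higher genes of TL2i, NHSM-v, and 4i/L/b were also 0 at an unadjusted p under 0.05 and with DESeq2, while in TL-CDK8i 1 was higher at an unadjusted p under 0.05 and 2 were higher with DESeq2. When the primed libraries were split by the letter in their column names, K against J, 0 of 44 proteasome genes differed by edgeR's test, 3 had an unadjusted p under 0.05, and 3.73% of all genes differed. The choice of scaling shifts all genes together. With library totals in place of TMM the median over all genes went from 0.07 to 0.19 in TL2i, from 0.02 to 0.15 in t2iLGöY, and from 0.03 to 0.15 in LCDM (EPS), and 33, 29, and 25 proteasome genes were lower.

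**Figure D1:**
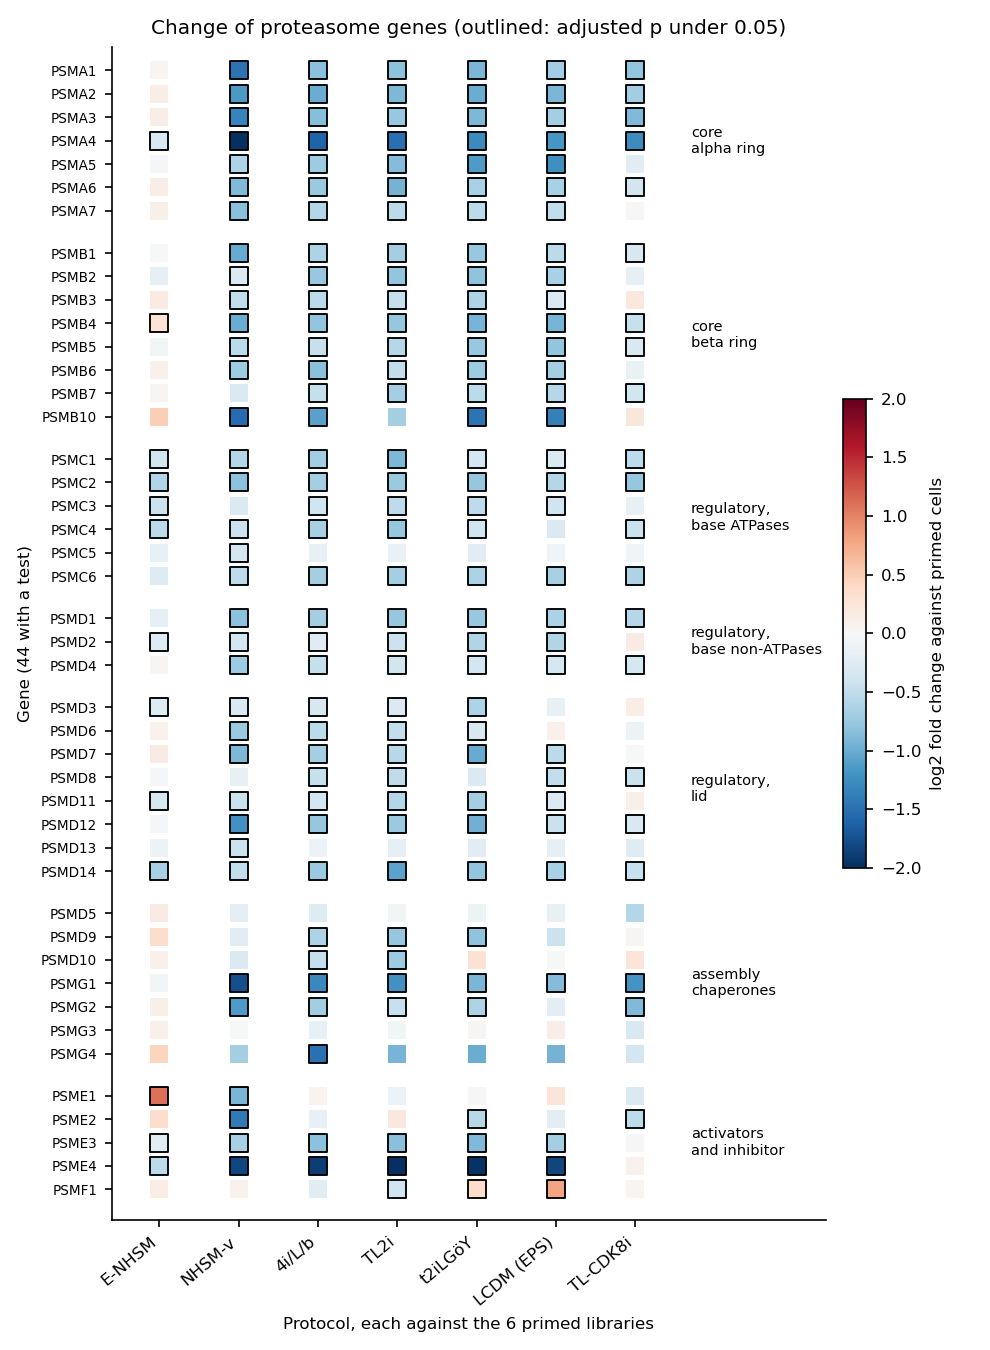
Log2 fold change of the 44 tested proteasome genes (rows, grouped by role) in each of 7 protocols against the 6 primed libraries (columns), with colour for size and direction and a black outline where edgeR's adjusted p was under 0.05. Blue squares fill the columns from NHSM-v to LCDM (EPS), where 30 to 37 genes were lower, while E-NHSM has 11 lower genes, 8 of them in the regulatory particle.

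The core particle fell as a group in 5 protocols. Of its 15 tested genes, 14 were lower in NHSM-v, 15 in 4i/L/b, 14 in TL2i, 15 in t2iLGöY, and 15 in LCDM (EPS), with median log2 fold changes of -0.89, -0.75, -0.76, -0.81, and -0.69. Summed over the 17 core genes, the level was 2119 ± 71.3 CPM in primed cells (SD, n = 6) and 1083 ± 60.9 (n = 3) in NHSM-v, the lowest of the group means. The other 4 means lay between 1128 and 1225 CPM, and their libraries, from 1083 to 1286 CPM, were all below the lowest primed library at 2046 CPM. TL-CDK8i lay between, at 1531 ± 134 CPM (n = 3), with 9 of 15 core genes lower. E-NHSM stood at 2145 ± 61.5 CPM (n = 3), with its libraries at 2080 to 2202 CPM inside the primed range, and had 1 core gene lower and 1 higher.

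In NHSM-v the median log2 fold change was -1.15 over the 7 tested alpha subunits and -0.63 over the 8 beta subunits, in LCDM (EPS) it was -0.69 and -0.66, and in E-NHSM 0.11 and 0.06. The difference between the rings was not tested. Within the alpha ring PSMA4, a structural subunit, was lower than in primed cells in each of the 7 protocols. PSMA4 ran from 330 to 394 CPM in primed cells, with a median of 360. It measured 77.7, 68.8, and 70.9 CPM in the NHSM-v libraries and 271, 294, and 303 in those of E-NHSM. No protocol library reached the primed range. The log2 fold change was -2.37 ± 0.0907 (SE) in NHSM-v, with an adjusted p of 1.6e-11 by edgeR, and -0.32 ± 0.0763 in E-NHSM, with an adjusted p of 0.0041. The 5 other protocols lay between, from -1.62 in 4i/L/b to -1.18 in LCDM (EPS), and none of the 7 calls was lost when any 1 library was left out.

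The other alpha subunits were lower in most protocols and were not called in E-NHSM. PSMA1 was at 203 to 248 CPM in primed cells (median 234), 236, 238, and 243 in E-NHSM, and 93.5, 82.9, and 83.5 in NHSM-v. Its E-NHSM libraries lay inside the primed range and those of the 6 other protocols, the highest at 148 CPM, below it. PSMA2 was at 148 to 195 CPM in primed cells (median 178) and 85.4, 80.5, and 75.5 in NHSM-v, while in TL-CDK8i it was at 98.3, 103, and 123. PSMA3 was at 101 to 129 CPM in primed cells (median 114) and 53.7, 47.2, and 39.7 in NHSM-v. Log2 fold changes in NHSM-v were -1.47 for PSMA1, -1.15 for PSMA2, and -1.34 for PSMA3, and in E-NHSM these 3 genes lay between 0.04 and 0.15, with adjusted p from 0.3 to 0.76 by edgeR. PSMA5 fell most in LCDM (EPS), where it was at 49.9, 37.9, and 35.5 CPM against 92.6 to 107 in primed cells (median 99), a log2 fold change of -1.23 ± 0.127 (adjusted p = 1.7e-06, edgeR). In TL-CDK8i PSMA5 was at 76.6, 92.4, and 90.2 CPM, all 3 under the lowest primed library, but the difference did not pass (adjusted p = 0.096, edgeR).

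Of the 3 catalytic subunits, PSMB5 holds the chymotrypsin-like site, PSMB6 the caspase-like site, and PSMB7 the trypsin-like site. PSMB5 was at 115 to 161 CPM in primed cells (median 123), 120, 117, and 136 in E-NHSM, and 72.5, 79.6, and 67.3 in LCDM (EPS). PSMB6 was at 94.3 to 129 CPM in primed cells (median 112) and 67.5, 65.7, and 62.8 in 4i/L/b. PSMB7 was at 109 to 171 CPM in primed cells (median 137) and 95.4, 81, and 85.8 in TL2i. Apart from E-NHSM, each of these protocol groups had the lowest mean of all protocols for its gene and lay below all primed libraries. PSMB5 was lower in 6 protocols, and PSMB6 and PSMB7 in 5 each. The log2 fold changes were -0.79 ± 0.123 for PSMB5 in LCDM (EPS) (adjusted p = 9e-05, edgeR), -0.83 ± 0.119 for PSMB6 in 4i/L/b (adjusted p = 4.5e-05, edgeR), and -0.68 ± 0.139 for PSMB7 in TL2i (adjusted p = 0.0011, edgeR). In E-NHSM all 3 lay between -0.05 and 0.10 with adjusted p from 0.59 to 0.9 by edgeR.

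Several calls on the catalytic subunits were close to the threshold. In TL-CDK8i, PSMB5 at 95.7, 112, and 111 CPM and PSMB7 at 97.2, 108, and 125 CPM passed with adjusted p of 0.048 and 0.044 by edgeR. The PSMB5 call was lost without any 1 of the 9 libraries (adjusted p from 0.051 to 0.24), and the PSMB7 call was lost without any of 6 of them, namely primed J1, J2, J3, or K1, or TL-CDK8i replicate 1 or 2 (0.055 to 0.22). DESeq2 gave 0.09 and 0.065. In 4i/L/b the PSMB7 call was lost without 4i/L/b replicate 1 (adjusted p = 0.052, edgeR), and in NHSM-v PSMB7 did not pass (log2 fold change -0.30, adjusted p = 0.077).

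PSMB4, a structural beta subunit, was called in opposite directions in different protocols. It was at 195 to 233 CPM in primed cells (median 205), 226, 285, and 247 in E-NHSM, and 114, 114, and 96.7 in NHSM-v. The E-NHSM libraries overlapped the primed range through the first of them, and those of NHSM-v lay far below. The fall in NHSM-v had a log2 fold change of -0.99 ± 0.1 (adjusted p = 6.3e-07, edgeR), and PSMB4 was lower in all 6 protocols other than E-NHSM. The rise in E-NHSM was 0.28 ± 0.0937 (adjusted p = 0.037, edgeR) and was lost without primed J2, K1, K2, or K3, or without E-NHSM replicate 2 or 3, with adjusted p from 0.054 to 0.27.

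PSMB10, the only interferon-induced catalytic subunit left in by the rule, was among the genes with fewest counts. It was at 8.13 to 12.3 CPM in primed cells (median 9.43), 1.49, 5.89, and 3.14 in NHSM-v, 2.45, 5.03, and 3.77 in LCDM (EPS), and 15.5, 15, and 11.2 in E-NHSM. PSMB10 was lower in NHSM-v, 4i/L/b, t2iLGöY, and LCDM (EPS), with log2 fold changes of -1.54 ± 0.448, -1.08 ± 0.326, -1.46 ± 0.395, and -1.36 ± 0.359 and adjusted p of 0.0082, 0.012, 0.0057, and 0.0051 by edgeR. The 4i/L/b call was lost without 4i/L/b replicate 2 or 3 (adjusted p from 0.052 to 0.064). The immunoproteasome subunits outside the rule, PSMB8 and PSMB9, did not exceed 2.28 CPM in any library and were not called against primed cells in any comparison that tested them.

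The regulatory particle fell less deeply than the core in these 5 protocols and was the side that was lower in E-NHSM. Of its 17 genes, 15 were lower in NHSM-v, 15 in 4i/L/b, 15 in TL2i, 14 in t2iLGöY, and 12 in LCDM (EPS), with median log2 fold changes of -0.49, -0.53, -0.56, -0.60, and -0.40. TL-CDK8i had 9 lower, with a median of -0.32, and E-NHSM had 8 lower, with a median of -0.27. The summed level of the 17 genes was 3152 ± 101 CPM (SD) over the 6 primed libraries, 2822 ± 139 in TL-CDK8i, 2690 ± 37 in E-NHSM, and between 2024 and 2330 in the 5 other groups (n = 3 each). Every protocol library was below the lowest primed library, at 3055 CPM.

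Dividing the summed core level by the summed regulatory level within each library gives a ratio that does not depend on the library's scaling. The ratio was 0.645 to 0.717 in primed cells and 0.772 to 0.831 in E-NHSM. It was 0.469 to 0.508 in NHSM-v, 0.524 to 0.527 in 4i/L/b, 0.535 to 0.584 in TL2i, 0.542 to 0.565 in t2iLGöY, 0.505 to 0.547 in LCDM (EPS), and 0.522 to 0.566 in TL-CDK8i. E-NHSM thus lay above all primed libraries and the 6 other protocols below all of them. A sum gives most weight to the genes with the highest levels. In TL-CDK8i the median log2 fold changes were nearly equal, at -0.33 for the core and -0.32 for the regulatory particle, although the ratio was lower. The ratio is over RNA counts uncorrected for gene length and says nothing of the number of particles.

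**Figure D2:**
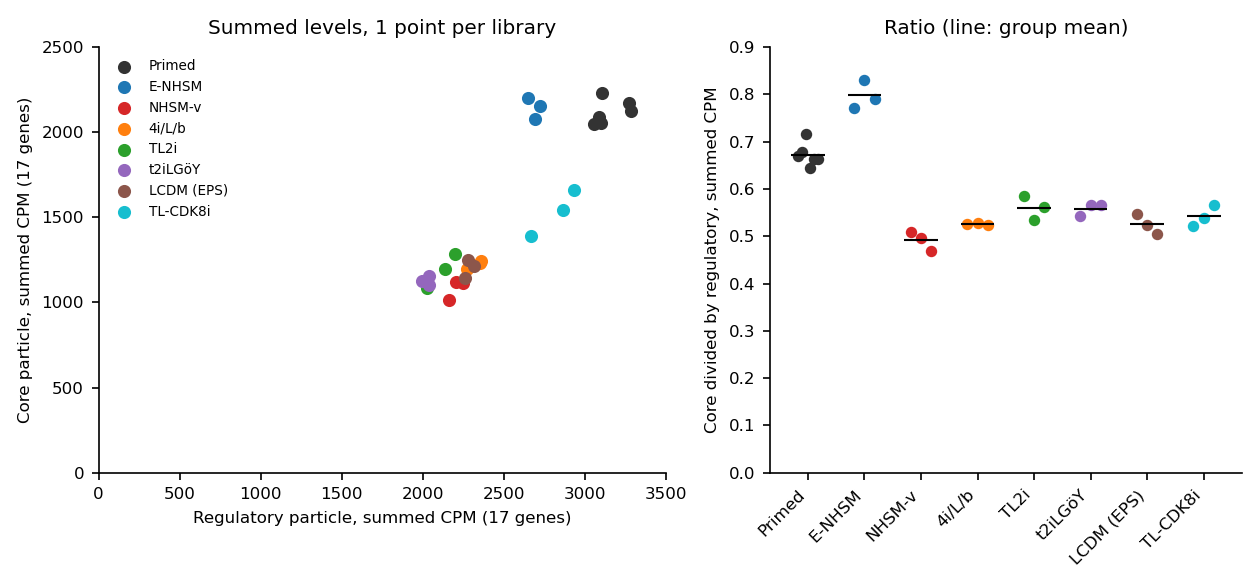
Left, summed CPM of the 17 core genes against that of the 17 regulatory genes, 1 point per library, and right, their ratio in each library with a line at the group mean. Primed libraries sit at 0.645 to 0.717, E-NHSM above at 0.772 to 0.831, and the 6 other protocols below, from 0.469 to 0.584.

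PSMC2, an ATPase of the base, had the smallest difference between protocols of the 44 genes. It was at 140 to 186 CPM in primed cells (median 167), 96.4, 110, and 114 in E-NHSM, 94.3, 101, and 91.4 in NHSM-v, and 93.1, 101, and 98.1 in TL-CDK8i. All 21 protocol libraries, from 81.8 to 114 CPM, were below all primed libraries. The log2 fold changes ran from -0.82 in NHSM-v to -0.58 in LCDM (EPS), with SE of 0.0996 to 0.113 and adjusted p from 9.4e-06 to 0.00033 by edgeR, and none of the 7 calls was lost when any 1 library was left out. A test of all 7 protocol means against each other did not pass for PSMC2 (adjusted p = 0.14, edgeR), with 0.21 between the highest and the lowest on the log2 scale. PSMC2 is on a list of genes that the study chose to plot from these same libraries, so its direction is not independent evidence.

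That test among the 7 protocols passed for 41 of the 44 proteasome genes, where 90.9% of all genes passed. The other 2 that did not pass were PSMC5, an ATPase, and PSMG3, an assembly chaperone, with adjusted p of 0.093 and 0.61 by edgeR. PSMC5 was lower in NHSM-v only, by -0.37 on the log2 scale, and that call was lost without primed J1 or J2 or NHSM-v replicate 1 or 3, with adjusted p from 0.054 to 0.12.

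In E-NHSM, 4 of the 8 lower regulatory genes were ATPases, namely PSMC1, PSMC2, PSMC3, and PSMC4. The others were PSMD2, a scaffold of the base, and the lid genes PSMD3, PSMD11, and PSMD14. All 6 ATPases had log2 fold changes under 0, from -0.61 to -0.17, with a median of -0.41, while the 15 core genes had a median of 0.10. PSMC4 was at 80.6, 86, and 85.8 CPM in E-NHSM against 94.8 to 158 in primed cells (median 119), a log2 fold change of -0.54 ± 0.141 (adjusted p = 0.0081, edgeR). The E-NHSM counts rested in part on single libraries and on scaling. Without E-NHSM replicate 2, 6 proteasome genes in place of 13 passed and 3 regulatory genes in place of 8 were lower, and with upper-quartile scaling or library totals 5 and 4 regulatory genes were lower, beside 3 higher genes in all against 7 and 6 lower. Leaving out each library in turn, PSMC2, PSMC4, and PSMD14 kept their calls in E-NHSM, as did PSMA4, PSME4, and PSME1.

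PSMD14, the deubiquitinase of the lid, was the regulatory gene with the largest fall in E-NHSM and the 4th gene lower in all 7 protocols, beside PSMA4, PSMC1, and PSMC2. It was at 152 to 226 CPM in primed cells (median 165), 106, 113, and 113 in E-NHSM, 86.3, 77.6, and 85.4 in TL2i, and 117, 131, and 141 in TL-CDK8i. None of the protocol libraries reached the primed range. The log2 fold change was -0.66 ± 0.118 in E-NHSM (adjusted p = 0.00036, edgeR) and -1.07 ± 0.125 in TL2i (adjusted p = 8.5e-06, edgeR). In TL-CDK8i it was -0.47 ± 0.126 (adjusted p = 0.007, edgeR), and that call was lost without TL-CDK8i replicate 1 (adjusted p = 0.066). PSMC1, an ATPase, was at 84.7 to 119 CPM in primed cells (median 99.1) and at 81.3, 78.1, and 76.7 in LCDM (EPS), where its log2 fold change was smallest, at -0.31 ± 0.112 (adjusted p = 0.03, edgeR). Its calls in E-NHSM, t2iLGöY, and LCDM (EPS) were each lost without some single libraries, with adjusted p from 0.053 to 0.13. Those libraries were primed K2 and replicates 1 and 2 for E-NHSM, replicates 2 and 3 for t2iLGöY, and primed J1 and K2 and any 1 protocol replicate for LCDM (EPS).

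The calls in TL-CDK8i were the least stable beside those of E-NHSM. Without TL-CDK8i replicate 1, 13 genes were called in place of 21, and lower core genes went from 9 to 5 and regulatory genes from 9 to 4. The core count was also 5 without TL-CDK8i replicate 2 or without primed K1. Among the 8 regulatory genes not called in TL-CDK8i were PSMD2, PSMD3, and PSMD11, which had log2 fold changes of 0.17, 0.14, and 0.12. PSMD2 was at 598, 634, and 652 CPM there against 507 to 582 in primed cells (median 543), so that its libraries lay above all primed ones, but the difference did not pass (adjusted p = 0.065, edgeR). Over the 7 comparisons, 166 of 209 calls on proteasome genes were kept whichever single library was left out.

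The assembly chaperones divided. PSMG1, which with PSMG2 starts the assembly of the alpha ring, was at 95.7 to 133 CPM in primed cells (median 127), 127, 109, and 109 in E-NHSM, 34.6, 35.1, and 40.3 in NHSM-v, and 53, 53.1, and 53.9 in TL-CDK8i. E-NHSM lay inside the primed range, and the 6 other protocols, with no library over 76.9 CPM, below it. Its log2 fold change was -1.76 ± 0.134 in NHSM-v (adjusted p = 2.9e-08, edgeR) and -1.20 ± 0.122 in TL-CDK8i (adjusted p = 2.1e-06, edgeR), the 2nd deepest fall of a proteasome gene in TL-CDK8i after PSMA4. PSMG2 was lower in 5 protocols, E-NHSM and LCDM (EPS) being the others, and its TL2i call was lost without primed J2 or K2 or any 1 TL2i replicate, with adjusted p from 0.05 to 0.1. PSMD9 was lower in 3 and PSMD10 in 2 protocols, while PSMD5 and PSMG3 were called in none. All 3 PSMD9 calls, in 4i/L/b, TL2i, and t2iLGöY, and the PSMD10 call in 4i/L/b were lost without some single libraries, among them replicate 2 of the protocol in each case, with adjusted p from 0.052 to 0.2. PSMG4 was lower in 4i/L/b only, with log2 fold changes of -0.93, -0.99, and -0.94 in TL2i, t2iLGöY, and LCDM (EPS) at adjusted p from 0.05 to 0.062. PSMG4 had at most 207 counts in a primed library, and its call was lost without 4i/L/b replicate 3 (adjusted p = 0.052).

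PSME4, the activator PA200, showed the widest split between protocols. It was at 773 to 992 CPM in primed cells (median 911), 237, 275, and 274 in NHSM-v, 209, 234, and 226 in TL2i, and 1000, 826, and 1080 in TL-CDK8i. E-NHSM was between, at 612, 594, and 635 CPM. The TL-CDK8i libraries overlapped the primed range, and all others were below it, with the 15 libraries of the 5 remaining protocols at 209 to 275 CPM. The log2 fold change was -2.01 ± 0.0874 in TL2i (adjusted p = 4.6e-10, edgeR), -0.55 ± 0.0701 in E-NHSM (adjusted p = 1.2e-05, edgeR), and 0.08 ± 0.0895 in TL-CDK8i (adjusted p = 0.5, edgeR). The test among protocols gave an adjusted p of 5.2e-20 by edgeR. PSME3, the nuclear activator PA28 gamma, had the same pattern at a smaller size, with 330 to 379 CPM in primed cells (median 343), 207, 175, and 207 in TL2i, and 351, 363, and 376 in TL-CDK8i. Its log2 fold change was -0.84 ± 0.0835 in TL2i (adjusted p = 1.9e-06, edgeR) and 0.01 ± 0.0728 in TL-CDK8i (adjusted p = 0.89, edgeR), and its call in E-NHSM was lost without primed K1 or K2 or without E-NHSM replicate 2 or 3, with adjusted p from 0.054 to 0.16.

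PSME1 and PSME2 are the interferon-induced subunits of the PA28 activator. Both were lower in NHSM-v, and PSME1 was higher in E-NHSM. PSME1 was at 21.3 to 36.8 CPM in primed cells (median 33.2), 70.3, 62.8, and 67.9 in E-NHSM, and 18.7, 13.8, and 18.9 in NHSM-v. E-NHSM lay above all primed libraries and NHSM-v below all of them, and in the 5 other protocols the values, from 24.7 to 39.8 CPM, overlapped the primed range. The log2 fold change was 1.10 ± 0.167 in E-NHSM (adjusted p = 7e-05, edgeR), the largest rise of a proteasome gene in any protocol, and -0.91 ± 0.221 in NHSM-v (adjusted p = 0.0024, edgeR). PSME2 was at 32.5 to 46.9 CPM in primed cells (median 41.9), 12.4, 18.5, and 15.8 in NHSM-v, and 57.3, 48.8, and 49.3 in E-NHSM. Its fall in NHSM-v was -1.41 ± 0.197 (adjusted p = 1.9e-05, edgeR). Its rise of 0.37 ± 0.151 in E-NHSM did not pass (adjusted p = 0.081, edgeR), although it did with upper-quartile scaling (0.037), with library totals (0.032), and in 1 fit of all 8 groups (0.023). PSME2 was also lower in t2iLGöY and TL-CDK8i, by -0.55 and -0.52 on the log2 scale, and these calls were lost without t2iLGöY replicate 1 or 2 (adjusted p from 0.055 to 0.066) and without TL-CDK8i replicate 2 or 3 (0.069 to 0.074).

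PSMF1, the inhibitor PI31, which binds the core, was the only proteasome gene to rise in LCDM (EPS) and t2iLGöY. It was at 70.4 to 77.8 CPM in primed cells (median 74.8), 138, 123, and 119 in LCDM (EPS), 92.2, 102, and 88.8 in t2iLGöY, and 58.2, 51.1, and 59.3 in TL2i. The first 2 protocols lay above and TL2i below all primed libraries. E-NHSM, at 83.6, 85, and 78.3 CPM, and NHSM-v, at 85.3, 80.5, and 78, also lay above all of them but were not called. The log2 fold changes were 0.80 ± 0.091 in LCDM (EPS) (adjusted p = 4.1e-06, edgeR), 0.38 ± 0.104 in t2iLGöY (adjusted p = 0.0064, edgeR), and -0.40 ± 0.102 in TL2i (adjusted p = 0.0048, edgeR). None of these 3 calls was lost when any 1 library was left out.

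**Figure D3:**
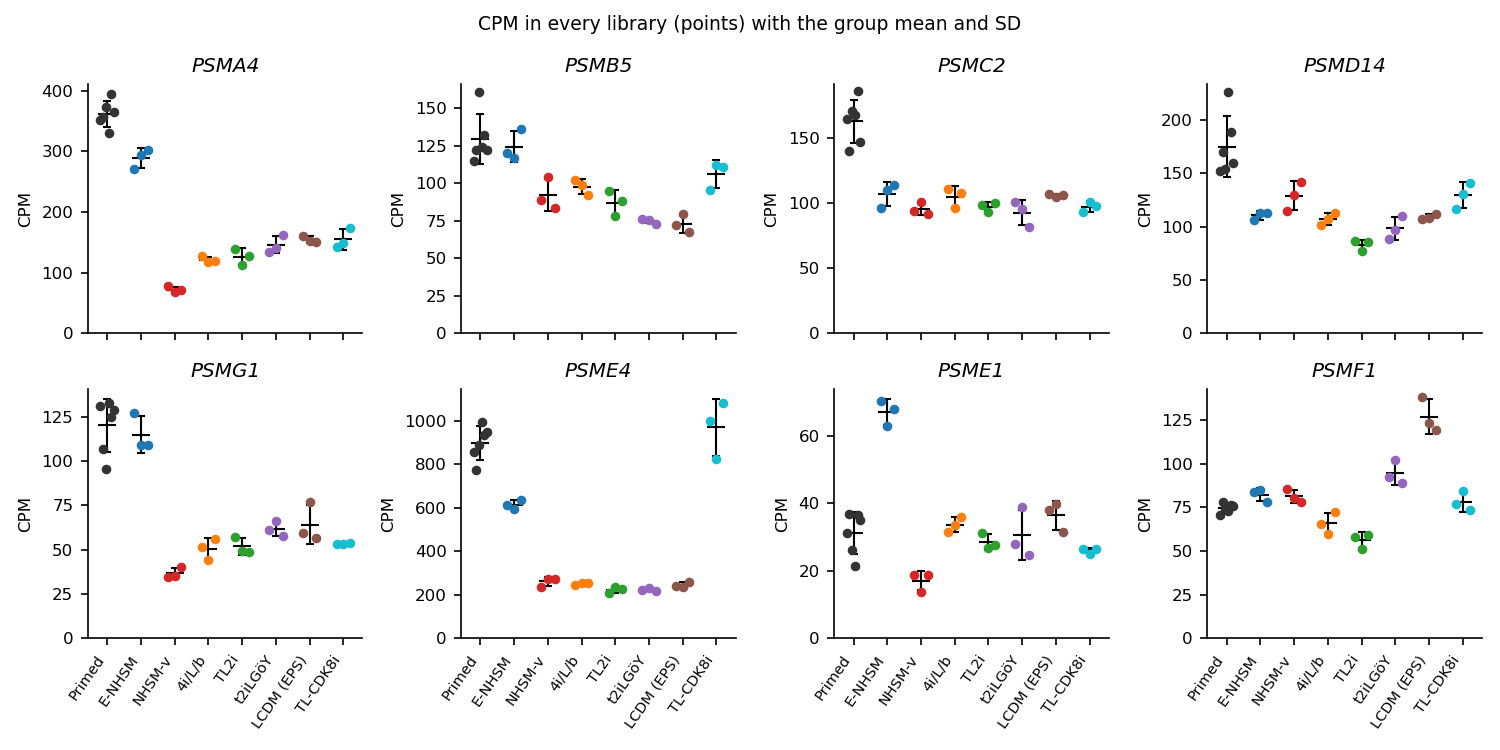
CPM of 8 proteasome genes in each of the 27 libraries (points) with the group mean and SD (black). PSMC2 and PSMD14 are lower in all 7 protocols, PSME4 falls to 209 to 275 CPM in 5 protocols but not in TL-CDK8i, PSME1 is highest in E-NHSM at 62.8 to 70.3 CPM, and PSMF1 is highest in LCDM (EPS) at 119 to 138 CPM.

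Across the 44 genes, the lowest group mean was that of NHSM-v for 15 genes, t2iLGöY for 12, TL2i for 8, LCDM (EPS) for 5, 4i/L/b for 2, and TL-CDK8i for 2, and never that of primed cells or E-NHSM. The highest was that of E-NHSM for 19, primed cells for 17, TL-CDK8i for 7, and LCDM (EPS) for 1. Such a ranking was not made over all genes, so it is not shown to be particular to proteasome genes. Libraries of a group were close, with a median coefficient of variation over the 44 genes of 5.43% in 4i/L/b to 10.6% in primed cells, and up to 63.3% for PSMB10 in NHSM-v. Many proteasome genes have processed copies elsewhere in primate genomes, and whether reads were shared with them was not tested.

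PSMC3IP, which only shares the prefix, was at 18 to 36.7 CPM in primed cells (median 21.5) and 32.9, 37.3, and 37.9 in TL2i, where it was higher by 0.65 ± 0.22 on the log2 scale (adjusted p = 0.023, edgeR). It was called in no other comparison with primed cells.

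The wider pathway was followed in 40 further genes, of which 14 were called the same way in at least 5 of the 7 protocols. Over all genes tested 29.7% were, so the count of 14 was near that share, while among the 44 tested proteasome genes 31 were. Among the 4 subunits or assembly factors that the symbol rule misses, ADRM1, a ubiquitin receptor of the base, was at 105 to 119 CPM in primed cells (median 112), 76.2, 71.7, and 76.5 in E-NHSM, and 51.4, 50.3, and 49.1 in t2iLGöY. No protocol library reached the primed range, and the log2 fold changes ran from -1.12 in t2iLGöY to -0.44 in TL-CDK8i, all lower by edgeR's test. SHFM1, the small lid subunit also called SEM1, was at 71.8 to 108 CPM in primed cells (median 96.9) and 28.6, 25.9, and 22 in NHSM-v, with a log2 fold change of -1.95 ± 0.156 (adjusted p = 4.9e-08, edgeR). SHFM1 was lower in all protocols but E-NHSM, and its TL-CDK8i call was lost without primed K3 or TL-CDK8i replicate 1 or 2, with adjusted p from 0.053 to 0.14. POMP, which matures the core, was lower in 2 protocols, and PAAF1, which binds the ATPases, was higher in 3.

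Of the 6 genes of the transcriptional control of subunit genes, NFE2L3, a transcription factor of the family of NFE2L1, was lower in all 7 protocols. It was at 594 to 819 CPM in primed cells (median 645), 237, 209, and 236 in E-NHSM, 160, 120, and 210 in TL-CDK8i, and 19.2, 16.1, and 12.3 in LCDM (EPS). No protocol library reached the primed range, and the log2 fold changes went from -1.56 ± 0.107 in E-NHSM (adjusted p = 5.9e-09, edgeR) to -5.37 ± 0.175 in LCDM (EPS) (adjusted p = 1.3e-11, edgeR). NFE2L1 itself, known to raise proteasome genes when the complex is inhibited, was chosen after its values were seen. It was at 397 to 470 CPM in primed cells, 590, 578, and 606 in E-NHSM, and 343, 358, and 289 in t2iLGöY, and it was higher in E-NHSM, NHSM-v, and TL-CDK8i and lower in TL2i, t2iLGöY, and LCDM (EPS). Its LCDM (EPS) call was lost without LCDM (EPS) replicate 3 (adjusted p = 0.072, edgeR). Among the rest of the list, NFE2L2 was higher in 3 protocols and lower in 1, and SYVN1 higher in 1 and lower in 2. AKIRIN2 was lower in 4 protocols, and NGLY1 was not called in any.

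Of the 10 associated factors, 3 were lower in LCDM (EPS), 4 in 4i/L/b, 5 in TL-CDK8i, 6 in NHSM-v, 7 in TL2i and in t2iLGöY, and 2 in E-NHSM. Of all genes, 28.9% were lower in LCDM (EPS), 29% in 4i/L/b, and 15.1% in E-NHSM, so the counts in these protocols were near the background. The shares were 23.8% in TL-CDK8i, 30.6% in NHSM-v, 25.2% in TL2i, and 27.2% in t2iLGöY, and the counts there were above them. Among genes with an average log2 CPM of at least 5, 37.4% to 43% were lower outside E-NHSM, which is closer to these counts. KIAA0368, a scaffold that binds both particles, was at 309 to 361 CPM in primed cells (median 337), 216, 226, and 234 in E-NHSM, and 146, 144, and 139 in 4i/L/b. All protocol libraries were below all primed ones, the log2 fold change running from -1.28 ± 0.0764 in 4i/L/b (adjusted p = 9.9e-09, edgeR) to -0.57 ± 0.0759 in E-NHSM (adjusted p = 1.6e-05, edgeR). Like PSMC2, it is on the list the study plotted from these libraries, and its direction is not independent evidence. UCHL5, the deubiquitinase held by ADRM1, was lower in 5 protocols, with -1.14 ± 0.18 in NHSM-v (adjusted p = 6e-05, edgeR), and did not pass in E-NHSM or TL-CDK8i.

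Upstream of the proteasome, genes were called in both directions. Of the 12 shuttles and unfoldase genes, 2 to 5 were higher and 3 to 5 lower in TL-CDK8i, t2iLGöY, TL2i, 4i/L/b, and NHSM-v. Over all genes tested, 22.3% to 28% were higher and 23.8% to 30.6% lower in these 5 protocols. Most of the counts over the 12 genes were near those shares. In LCDM (EPS) 1 of the 12 was higher and 4 were lower, against 28.2% and 28.9% of all genes. In E-NHSM 1 was higher and 6 were lower, against 11.1% and 15.1%, so the lower count there was above its share. UBQLN2, which carries ubiquitinated proteins to the proteasome, was at 50.8 to 83.8 CPM in primed cells (median 76.6), 40.5, 38, and 39.8 in E-NHSM, and 165, 146, and 137 in LCDM (EPS). It was lower in E-NHSM by -0.87 ± 0.154 (adjusted p = 0.00033, edgeR) and higher in 5 protocols, up to 1.08 ± 0.136 in LCDM (EPS) (adjusted p = 1.1e-05, edgeR), with the 4i/L/b call lost without 4i/L/b replicate 3 (adjusted p = 0.078). Chosen after their values were seen, VCP, the unfoldase that pulls substrates from membranes and complexes, was lower in all 7 protocols, and SQSTM1, a receptor that links ubiquitin to autophagy, was higher in 5. Their calls lost without single libraries were those of VCP in E-NHSM, without any 1 E-NHSM replicate, and in 4i/L/b, without primed J2 or K1 or any 1 4i/L/b replicate (adjusted p from 0.06 to 0.085), and that of SQSTM1 in t2iLGöY, without primed K2 or t2iLGöY replicate 1 or 3 (adjusted p from 0.05 to 0.14). Of the 6 ubiquitin and E1 genes, 3 were higher and 1 lower in E-NHSM, 2 higher in TL-CDK8i, and 0 to 1 higher and 2 to 3 lower in the others. These counts are over 6 genes only and were not tested against the shares of all genes.

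**Figure D4:**
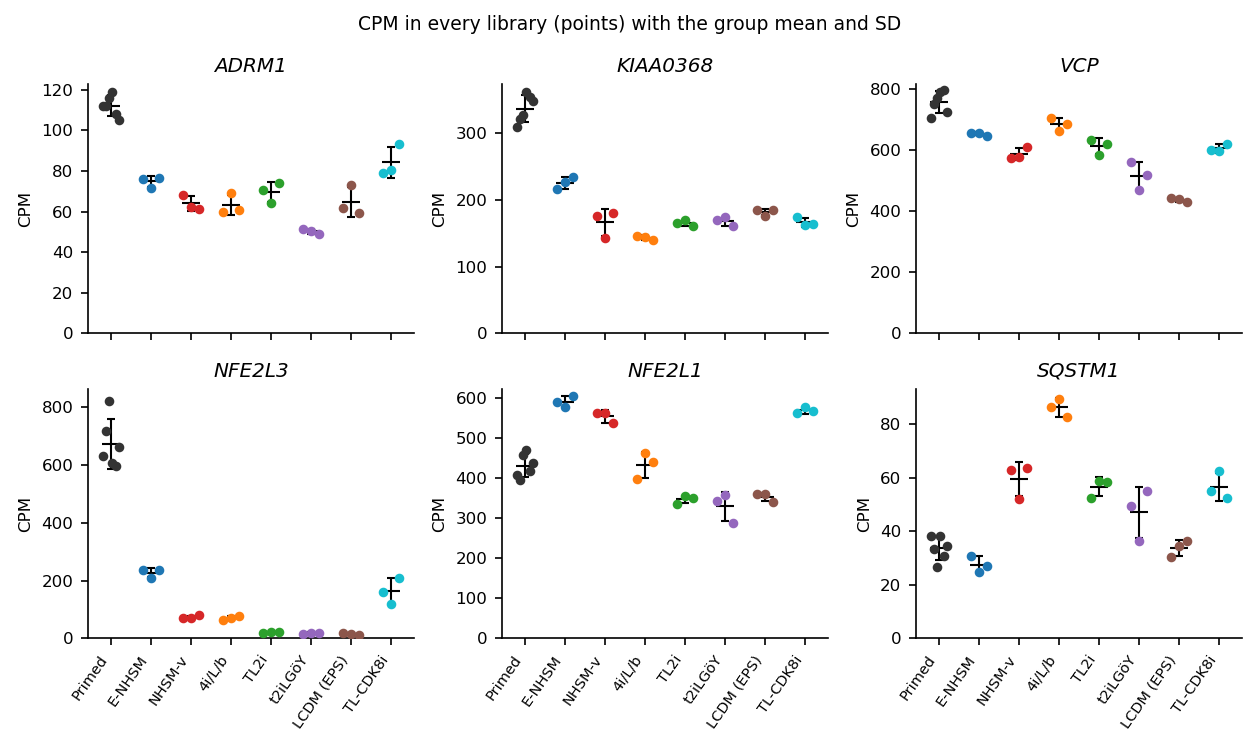
CPM of 6 pathway genes outside the symbol rule in each of the 27 libraries (points) with the group mean and SD (black). ADRM1, KIAA0368, and NFE2L3 are lower in all 7 protocols, VCP is lower by smaller amounts, and NFE2L1 and SQSTM1 are higher in some protocols and not in others.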

How the data were processed

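Bulk RNA of 27 libraries was measured as 75-base single reads from directional mRNA libraries. The authors deposited unnormalized read counts for each gene symbol, with a column for every library and no pooling. The submitters' processing notes name bcl2fastq, cutadapt, HISAT2, and HTSeq. Neither build nor annotation nor the strand setting of the counting is stated; these are not given in the sources used here, so reads of overlapping antisense genes may not be told apart. In all, 0 columns were left unassigned. The columns of primed cells carry the letters J and K, which the labels do not tie to single samples.

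In edgeR 4.0.16 (with limma 3.58.1, under R 4.3.3) the counts gave TMM scaling, CPM, and the quasi-likelihood F test, with 1 fit per protocol against the 6 primed libraries, genes kept by filterByExpr, and Benjamini-Hochberg adjustment over all genes tested. DESeq2 1.42.0, other scalings, other filters, a minimum fold change, 1 fit of all groups, each library left out, and a replicate block were alternatives. The procedure was also run on simulated counts with far fewer changed genes than were called here. Such a run cannot check the scaling or the error rate in these data. A total of 3 counts equals 0.138 to 0.422 CPM, according to depth.

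The members and lists were chosen with earlier results of these data known. Of 31 genes called the same way in at least 5 of 7 comparisons, the 10 with the largest mean absolute change were named by rule. So were genes with the largest rise or fall in a comparison and those called both ways. The catalytic and interferon-induced subunits, PSMC2, and 6 pathway genes completed the rule. The text gives CPM of most of them in chosen protocols only, often those with the largest change, and none for UCHL5. Others named with values, such as PSMC1, PSMC4, PSMC5, PSMD2, PSMD3, PSMD11, PSME3, PSMG2, and PSMG4, were chosen after their values were seen.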

Additional observations from a re-analysis of the deposited data

How the results depend on the processing

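Of 161 counts of called proteasome genes recomputed under the alternatives, 157 stayed within 1.5 times the reported count. Of 532 counts by direction or particle 36 moved further than that, of 266 medians over a particle 49 moved by more than the replicate spread, and of 7182 results on single genes 313 lost and 73 gained a call. No call on a single gene was reversed in direction, and reversal was not recorded for counts or medians. With a minimum absolute log2 fold change of 0.5, 5 genes in place of 13 were called in E-NHSM and 11 in place of 21 in TL-CDK8i, because the alternative drops small changes. Lower regulatory genes then went from 15 to 8 in NHSM-v, from 15 to 9 in 4i/L/b, and from 12 to 6 in LCDM (EPS). Leaving out 1 library at a time gave 6 to 14 calls in E-NHSM, 31 to 36 in NHSM-v, 32 to 37 in 4i/L/b, 31 to 38 in TL2i, 32 to 38 in t2iLGöY, 27 to 33 in LCDM (EPS), 13 to 21 in TL-CDK8i, and 40 to 42 among the 7 protocols. The 6 came without E-NHSM replicate 2 and the 13 without TL-CDK8i replicate 1, and the cause was not tested. Deviations of same-numbered libraries correlated at -0.39 to 0.077 over 45 pairs, 0 of them over 0.1. Primed deviations were taken from a common mean of the J and K libraries, which differ, so these values cannot exclude pairing by number. A fit with the replicate block called 11 genes in E-NHSM, 35 in NHSM-v, and 36 each in 4i/L/b, TL2i, and t2iLGöY. It called 30 in LCDM (EPS), 19 in TL-CDK8i, and 41 among protocols. Depth limits PSMB10 and PSMG4 most among the genes tested, and levels cannot be compared between genes because lengths were not used.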
